A study of Drosophila melanogaster with 70 samples.

Results

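The pair-rule genes described here are even-skipped (eve), hairy (hry), runt (run), odd-skipped (odd), paired (prd), sloppy-paired 1 and 2 (slp1 and slp2) and odd-paired (opa). These 8 genes were listed by name, and each was matched by its symbol to a gene table of the release 6 assembly of Drosophila melanogaster. They are 8 of 13842 protein-coding genes on the 5 chromosome arms for which domain boundaries were deposited. odd, prd, slp1 and slp2 lie on 2L, eve on 2R, hry on 3L, opa on 3R and run on X. For each gene, the Hi-C domain that held it was read at stage 5 and at stage 15, with the domain's length and neighbours, and the distance from both gene ends to the nearest boundary.

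Pair-rule genes stand between the gap genes and the segment polarity genes in the cascade that divides the fly embryo into segments. Most of them are transcribed in the blastoderm in stripes that mark alternate segments, and all 8 encode transcription factors. The stripes are driven by separate enhancers that are often scattered over noncoding DNA on both sides of the gene. Domain boundaries are places in the genome where contacts measured by Hi-C across the site are few, so that the DNA between neighbouring boundaries, a domain, contacts itself more than its surroundings.

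Hi-C, which joins DNA fragments that touch inside the nucleus and reads them by sequencing, was performed in situ with the enzyme DpnII on embryos staged by hand. Embryos at stage 5 (blastoderm, nuclear cycle 14) came from mothers with the germline driver mat-a-tubGal4 and either controlRNAi (stocks 7063 and 36304, 3 libraries) or mofRNAi (stocks 7063 and 58281, 2 libraries), crossed to their siblings. MOF acetylates lysine 16 of histone H4. The stage 15 embryos (14 to 16 h after egg laying) came from the same RNAi crosses with driver stock 7062 in an Sxl-GFP background. GFP-negative embryos were sorted as males and GFP-positive ones as females, and males and females of each RNAi gave 2 libraries apiece, 8 in all. All groups thus carry the maternal driver, which acts in the mother, and each library pools 50 to 100 embryos per the labels' protocols. In the mof RNAi libraries the strain label speaks of controlRNAi mothers beside stock 58281, so their group was taken from the title, and the treatment protocol names driver stock 7062 for the stage 5 libraries too.

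Stage 15 and each stage 5 condition had 1 list of boundaries in 2.5 kb bins of dm6, taken to pool its libraries. The stage 5 control list held 2591 boundaries, the stage 5 mof RNAi list 2499 and the stage 15 list 2785, whose libraries are named as all 8 without saying which were pooled. A stage 15 value therefore cannot be taken as a value of control embryos alone. Read numbers are not part of the lists, and the depth behind each boundary is unknown. By the numbers in boundary names, bins were left out inside 33.4% of stage 5 control domains and 34.4% of mof RNAi domains. The stage 15 list had 0 left-out bins. Boundaries wider than a bin numbered 140 in each stage 5 list and 0 at stage 15. The part of these features in the differences between stages was not tested. With 1 list for each stage 5 condition and 1 for stage 15, differences could not be set against replicate error, so none was tested. A shift of 2.5 kb is 1 bin, the smallest step between boundaries that are 1 bin wide. The wider boundaries at stage 5 can place midpoints at smaller steps. Each boundary carries the authors' score on a scale that is not stated. It is given here only by its rank within its own list, where rank 1 is the most negative score, and ranks are not compared between lists.

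The 8 genes occupied 7 domains in each list, because slp1 and slp2 shared 1 domain throughout. The domains of eve and odd had the same ends in all 3 lists, to the bin. Those of hry and prd had the same ends in both stage 5 lists and at least 1 other end at stage 15. That of opa had the same ends within 2.5 kb in both stage 5 lists, and again in mof RNAi and stage 15. Those of run and of slp1 and slp2 had a different left end after mof RNAi, and different ends at stage 15, than in stage 5 control. Over all protein-coding genes, 59.0% had the same domain ends in both stage 5 lists, 31.5% in stage 5 control and stage 15, 26.8% in mof RNAi and stage 15, and 23.1% in all 3 lists. The members stood at 5 of 8, 2 of 8, 3 of 8 and 2 of 8, which are shares near that background. With ends matched within 5 kb, 4 of 8 had the same ends in control and stage 15, hry and opa being added, beside 36.5% of all protein-coding genes.

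**Figure D1:**
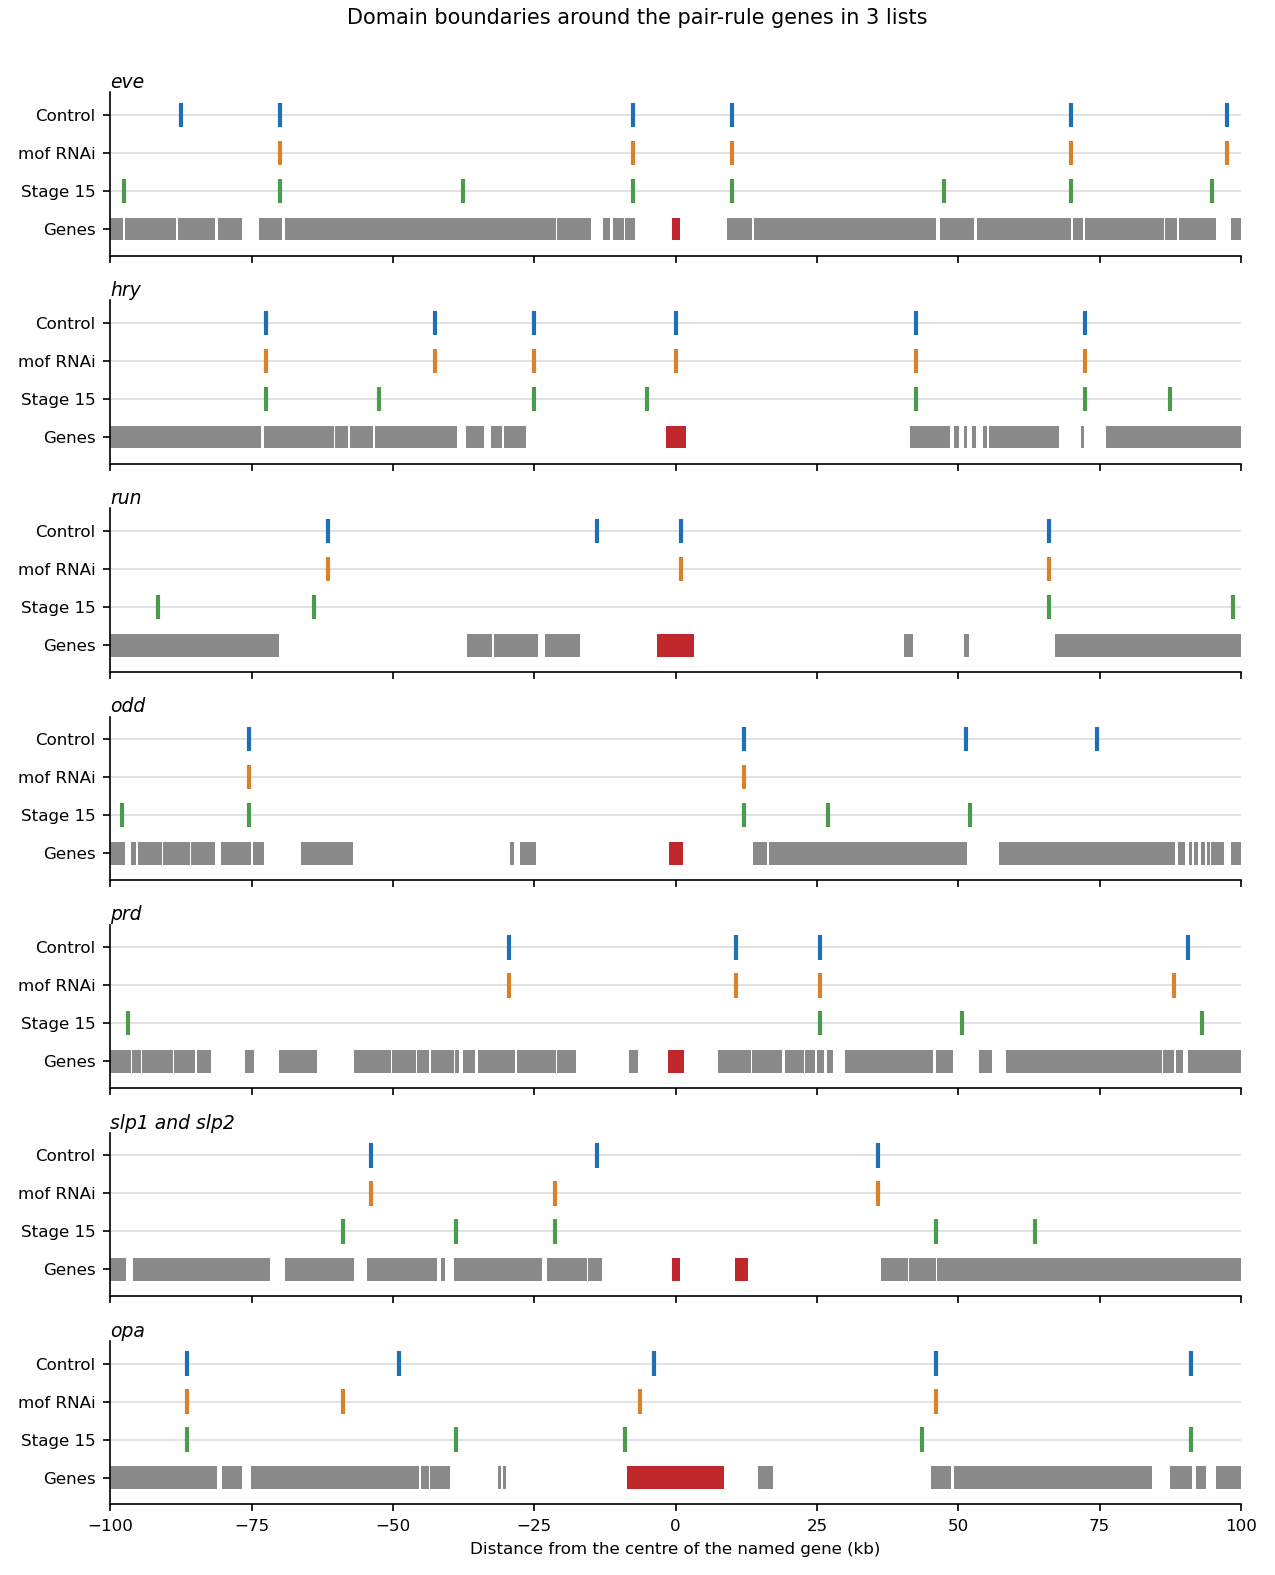
Boundaries within 100 kb of the centre of each gene (horizontal axis, kb), with 1 row each for the stage 5 control, stage 5 mof RNAi and stage 15 lists. Vertical marks are boundary midpoints, red boxes the pair-rule genes and grey boxes other protein-coding genes. The marks on both sides of eve and of odd line up in all 3 rows, and no stage 15 mark lies within 60 kb of run.

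eve encodes a homeodomain repressor that patterns the odd-numbered parasegments. The gene (2R 9979319 to 9980795) was the only protein-coding gene held by its domain, which measured 17.5 kb in each list. The left boundary at 9971251 to 9973750 lay over CG12134 and the right boundary at 9988751 to 9991250 lay over TER94, which encodes a conserved AAA ATPase. Elements known as nhomie and homie are insulators that flank the eve locus, which is background and was not measured here. The left end of eve was 6.82 kb from the nearest boundary midpoint and the right end 8.3 kb from the same boundary, and these distances were the same in all 3 lists.

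The boundaries at eve ranked 646 (left) and 447 (right) of 2591 in stage 5 control, and 645 and 533 of 2499 after mof RNAi. At stage 15 they ranked 1306 and 1515 of 2785. The eve domain was short for its list, at percentile 9.78 of domain lengths in stage 5 control, 9.12 after mof RNAi and 12.7 at stage 15. New boundaries around eve at stage 15 lay outside its domain: within 100 kb of the gene the control list had 6 boundaries, the mof RNAi list 5 and the stage 15 list 8.

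hry encodes a basic helix-loop-helix repressor that works with the co-repressor Groucho. In both stage 5 lists a boundary at 3L 8676251 to 8678750 lay inside the gene (8675759 to 8679253), 1.74 kb from its left end and 1.75 kb from its right end, so that its midpoint split hry almost evenly. The domain to the right of it measured 42.5 kb and that to the left 25 kb, and the left one held no protein-coding gene by its larger part. The right domain held the larger part of hry and SrpRbeta, a subunit of the signal recognition particle receptor, at whose end it stopped.

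At stage 15 the boundary inside hry was not called, and the nearest lay 5 kb further left at 8671251 to 8673750. It was 3.26 kb outside the left end of hry and 6.75 kb from the right end, which placed the whole gene in the domain to its right, now 47.5 kb long. The boundary inside hry ranked 1053 of 2591 in control and 896 of 2499 after mof RNAi. The stage 15 boundary had a positive score and ranked 2636 of 2785, among the least negative of that list, and without the less negative 50% of boundaries the nearest to hry at stage 15 lay 40.7 kb away. The right end of the domain, at 8718751 to 8721250, was at the same bin in all 3 lists and ranked 1353, 1185 and 1209.

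run encodes a Runt-domain factor, the founding member of the Runx family, and is the X-linked member of the 8. With all boundaries of the lists, its domain changed most in length among them. In stage 5 control it was held by a domain of 15 kb (percentile 4.89 of lengths) between boundaries at X 20678751 to 20681250 and at 20693751 to 20696250, with no other protein-coding gene. After mof RNAi the left of these was not called, the nearest mof RNAi boundary being 15 kb from it, and run was held by a domain of 62.5 kb (percentile 72.9). That domain also held Cyp6v1 (a cytochrome P450), CG1835 and hydra. Its left end, at 20631251 to 20633750, was also a boundary in the control list, so the stage 5 lists differed at run by the boundary to the left of the gene alone within 100 kb.

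The boundary on the right of these domains lay inside run (20690670 to 20697321), 4.33 kb from its left end and 2.32 kb from its right end, in both stage 5 lists. It ranked 2243 of 2591 in control and 2123 of 2499 after mof RNAi, both with positive scores, and the boundary called only in control also had a positive score (rank 2317). These are ranks among the least negative of each list. Among the 50% of boundaries with the most negative scores, the nearest to run at stage 5 lay 58.2 kb away in both lists. The run domain then measured 127.5 kb in both stage 5 lists and 235 kb at stage 15, so the difference between the stage 5 lists was not there. At stage 15 neither was called. run then lay in 1 domain of 130 kb with 5 other genes, at percentile 95.8 of lengths. The ends of run were 60.7 kb and 62.7 kb from the nearest boundaries, which is percentile 98.3 of the distances of all protein-coding genes at stage 15. The domain began at 20628751 to 20631250, 6.23 kb from the run paralog RunxA, and stopped at 20758751 to 20761250 beside shakB, which encodes a gap junction innexin. That last boundary was at the same bin in all 3 lists and ranked 49 of 2591 in control, 25 of 2499 after mof RNAi and 631 of 2785 at stage 15.

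odd encodes a zinc finger repressor. It shared its domain with its paralogs drm and sob, which encode zinc finger proteins of the same family, with the intraflagellar transport gene IFT57 and with CG43815. The domain measured 87.5 kb in each list, the longest of the 7 at stage 5, between 2L 3528751 to 3531250 over Spindly and 3616251 to 3618750 near Ugt36A1. odd (3604224 to 3606756) lay toward the right end, 13.3 kb (left end) and 10.7 kb (right end) from that boundary, while drm lay 9.25 kb from its nearest boundary and sob 36.7 kb. The right boundary ranked 100 of 2591 in control, 110 of 2499 after mof RNAi and 954 of 2785 at stage 15. The left boundary ranked 1019, 958 and 843.

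Outside that domain the lists at odd differed. Of the 4 control boundaries within 100 kb of odd, the 2 that formed the domain had a partner after mof RNAi and the 2 further right did not. The domain to the right of odd was thus divided in control and at stage 15 at places where the mof RNAi list had no boundary. The stage 15 list had 5 boundaries in the same window, 3 of them with a control partner.

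prd encodes a Pax protein with a paired domain and a homeodomain. In both stage 5 lists its domain measured 40 kb, from 2L 12053751 to 12056250 over JhI-21, an amino acid transporter gene, to 12093751 to 12096250 near CG6712. It held 7 protein-coding genes, among them RpL7-like, Rab3-GAP and the peroxisome biogenesis gene Pex19. prd (12082995 to 12085827) was 12.0 kb (left end) and 9.17 kb (right end) from the right boundary, which ranked 139 of 2591 in control and 93 of 2499 after mof RNAi.

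At stage 15 neither end was called. The prd domain ran from 11986251 to 11988750 over CG6686 to 12108751 to 12111250 over Phae1, a length of 122.5 kb with 35 protein-coding genes. The ends of prd were then 27.0 kb and 24.2 kb from the nearest boundary. The stage 15 ends ranked 87 and 117 of 2785, and the right one was also called in both stage 5 lists, 15 kb outside the stage 5 domain. The left end had its nearest stage 5 boundary 17.5 kb away in both lists. The stage 5 maps left out 2 bins inside the prd domain, and the part of these bins in the difference between stages was not tested.

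slp1 and slp2 encode forkhead factors and are neighbouring paralogs, 9.74 kb apart. In stage 5 control their domain measured 49.7 kb and held no other protein-coding gene by its larger part. It ran from 2L 3811251 to 3813750, over CG3407, to 3860626 to 3863750 near TTLL4B. After mof RNAi the left end lay 7.5 kb further left, at 3803751 to 3806250 over Reph, which made the domain 57.2 kb and added CG3407 and Reph. At stage 15 the left end was at that same bin, and the right end lay 10.3 kb further right, at 3871251 to 3873750. The domain was then 67.5 kb long and also held TTLL4B, Cep97 and CG31957, so it was longer in each of the other lists than in stage 5 control.

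The nearest boundary was 13.2 kb from the left end of slp1 in control and 20.7 kb after mof RNAi and at stage 15. slp2, in the middle of the domain, was 23.0 kb from it in both stage 5 lists (right end) and 31.8 kb at stage 15 (left end). The left domain end ranked 954 of 2591 in control, 1027 of 2499 after mof RNAi and 500 of 2785 at stage 15. The right end ranked 1051, 1032 and 285. The right stage 5 boundary was 3.125 kb wide, 1 of 140 in each stage 5 list that were wider than a bin.

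opa encodes a zinc finger factor of the Zic family and is expressed in a broad domain rather than in stripes. It is also the longest of the 8 genes, at 17.2 kb (3R 4852813 to 4869979). A boundary lay inside it in both stage 5 lists, 4.69 kb from its left end in control (4856251 to 4858750) and 2.19 kb from it after mof RNAi (4853751 to 4856250), a shift of 1 bin. At stage 15 the boundary lay 1 bin further left again, at 4851251 to 4853750. Its midpoint was 0.313 kb outside the left end, less than 1 bin, and its interval still overlapped the gene. By the midpoint, the whole of opa was then in the domain to the right of the boundary, against 72.7% of its length in control and 87.3% after mof RNAi.

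The opa domain was 50 kb long in control and 52.5 kb in the other lists, and held laf as its other protein-coding gene in each. Its right end lay near Gnf1, which encodes a replication factor C subunit, at 4906251 to 4908750 in both stage 5 lists and 1 bin to the left at stage 15. The boundary at the left end of opa ranked 1030 of 2591 in control, 1096 of 2499 after mof RNAi and 2751 of 2785 at stage 15, where its score was positive. Without the less negative 50% of boundaries, the nearest to opa at stage 15 lay 30.3 kb away. The right end ranked 1442, 1737 and 389. The stage 5 maps left out 3 bins inside the opa domain, and their part in these shifts was not tested.

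**Figure D2:**
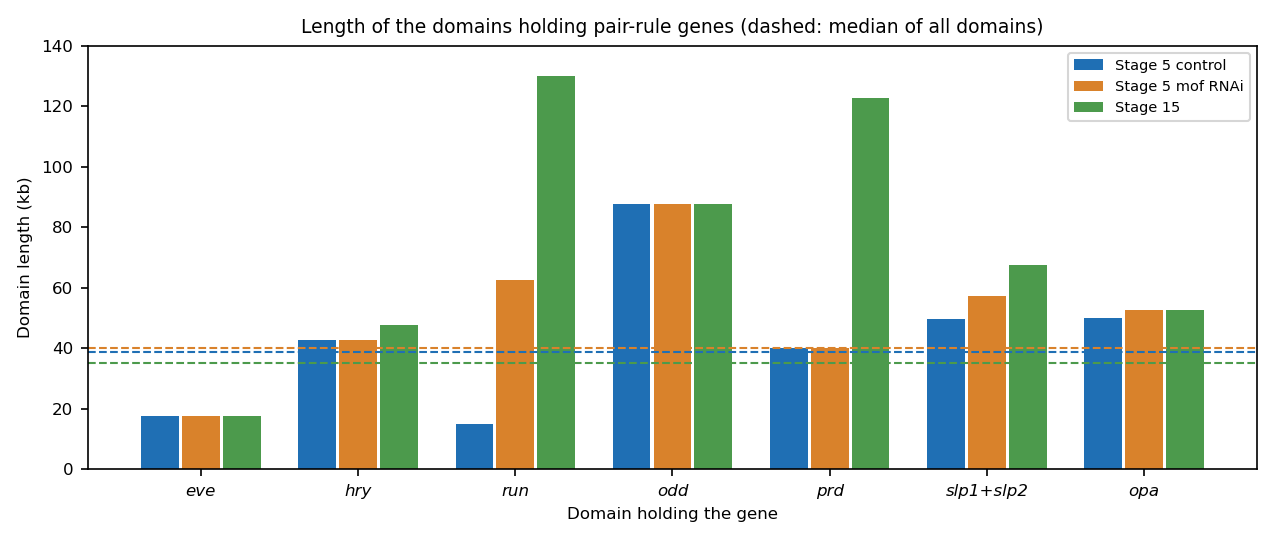
Length in kb of the domain holding each pair-rule gene in the 3 lists (bars), with the median of all domains of each list (dashed lines, same colours). The run domain measures 15, 62.5 and 130 kb, while the eve bars are level at 17.5 kb and the odd bars at 87.5 kb.

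By length, the stage 5 control domains stood in the order run (15 kb), eve (17.5), prd (40), hry (42.5), slp1 and slp2 (49.7), opa (50) and odd (87.5). The neighbours run and eve, prd and hry, and slp1 with slp2 and opa differed by no more than 1 bin. The median of the 7 was 42.5 kb in control, 52.5 kb after mof RNAi and 67.5 kb at stage 15. The medians of all domains were 38.6, 40 and 35 kb. For the domain that held each protein-coding gene the medians were 47.5, 52.5 and 42.5 kb. Members' domains thus lay close to those of other genes at stage 5, and at stage 15 their median was longer than either background, with run at 130 kb and prd at 122.5 kb. These lengths rest in part on the less negative boundaries. With the 50% of boundaries that have the most negative scores, the hry domain measured 320 kb in control, 42.5 kb after mof RNAi and 115 kb at stage 15. The opa domain measured 95, 115 and 82.5 kb, and that of prd 40, 125 and 122.5 kb. The eve domain was then 17.5 kb at stage 5 and 55 kb at stage 15, while those of odd and of slp1 and slp2 had the same lengths as with all boundaries. The right end at hry, at the same bin in both stage 5 lists, stood at score percentile 52.2 in control and 47.4 after mof RNAi. The left end at prd, also at the same bin, stood at 44.5 and 53.7. These ends fell on either side of the 50% cut, so the stage 5 length differences at hry and prd are no sign of boundaries at other places.

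Some of the 8 genes had an end at a boundary, taken as within 2.5 kb of its midpoint. They were hry and run in stage 5 control (2 of 8, beside 31.6% of all protein-coding genes), hry, run and opa after mof RNAi (3 of 8, beside 29.5%) and opa at stage 15 (1 of 8, beside 34.5%). Against these shares the members' counts were neither clearly above nor clearly below, and within 1 kb of a midpoint lay 0 of 8 in either stage 5 list, beside 18.5% of all protein-coding genes in control and 17.2% after mof RNAi. The members just inside the limit were run at 2.32 kb and opa at 2.19 kb after mof RNAi, and the nearest outside it was hry at 3.26 kb at stage 15. A boundary midpoint inside the gene was found for hry, run and opa in both stage 5 lists (3 of 8), and for 0 of 8 at stage 15. Over all protein-coding genes the shares were 11.8% in control, 11.5% after mof RNAi and 12.5% at stage 15. At opa the stage 15 midpoint was outside the gene by 0.313 kb, less than 1 bin, and the boundary interval overlapped the gene.

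**Figure D3:**
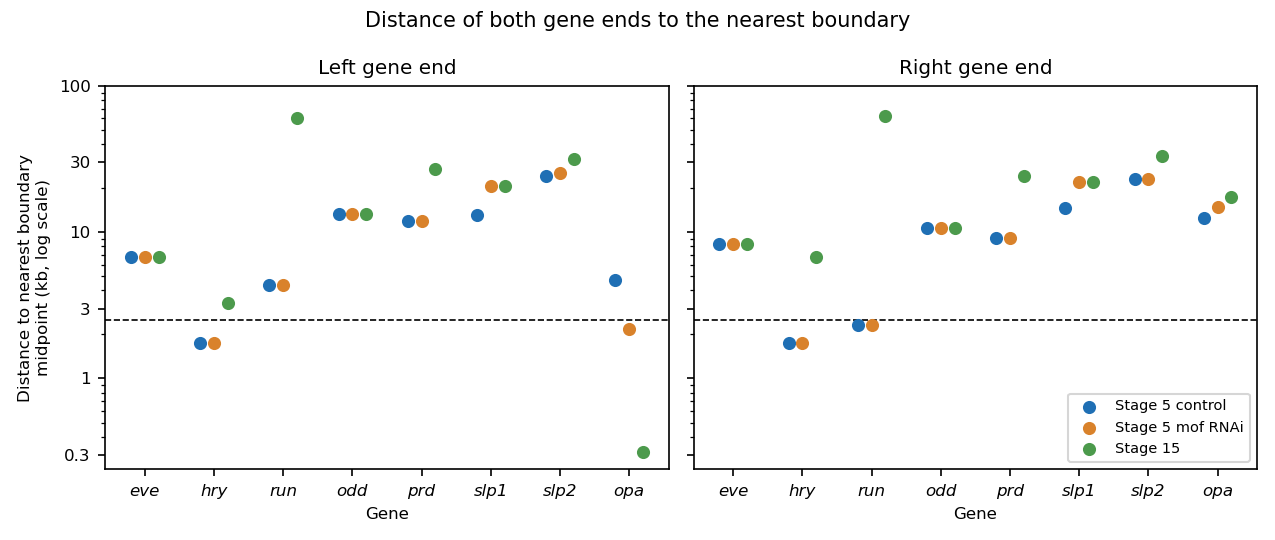
Distance in kb (log scale) from the left end and the right end of each gene to the nearest boundary midpoint in the 3 lists (points), with the 2.5 kb limit dashed. The stage 15 points of run stand at 60.7 and 62.7 kb, far above its stage 5 points, and the left end of opa falls to 0.313 kb at stage 15.

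The distance to the nearest boundary was equal at stage 5 with and without mof RNAi for eve, hry, run, odd, prd and slp2. It was longer after mof RNAi for slp1 and shorter for opa. At stage 15 it was longer than in stage 5 control for hry, run, prd, slp1 and slp2, equal for eve and odd, and shorter for opa. The nearest boundary of slp2 stood at percentile 86.4 of distances over all protein-coding genes in control, that of slp1 at 72.1, odd at 65.7, prd at 61.1 and eve at 52.7. Those of opa, run and hry stood at percentiles 43.6, 30.4 and 26.1. The 8 genes were thus spread over both sides of the typical distance.

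The 7 domains had 14 end boundaries in each list. Of those in stage 5 control, 12 had a partner within 2.5 kb after mof RNAi, beside 78.7% of all control boundaries. The 2 without one were the left ends at run and at slp1 and slp2. At stage 15, 6 of the 14 had a partner, beside 61.7% of all control boundaries: both ends at eve, both at odd, and the right ends at hry and opa. Of the mof RNAi ends 9 of 14 had a stage 15 partner, beside 59.9%. Read from stage 15, 9 of its 14 ends had a control partner, beside 57.4% of all stage 15 boundaries, and 11 of 14 had a mof RNAi partner, beside 53.8%. That hry and run were at a boundary at stage 5 and not at stage 15 was known when the 8 genes were chosen, so the stage 15 count is no independent sign of loss.

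For the 3 genes whose left domain end differed between the stage 5 lists by more than 2.5 kb (run, slp1 and slp2), the mof RNAi end lay within 2.5 kb of the stage 15 end and the control end did not. These are 2 domains. Over all protein-coding genes, domain ends were counted once per gene and side, so an end counts once for each gene its domain holds. Of 27592 ends counted so, 6765 differed between the stage 5 lists in this way. At 33.4% of them the control end was the one at the stage 15 end, and at 17.3% the mof RNAi end was. The members' ends were of the less frequent kind by that count, in which domains with many genes weigh more. At slp1 and slp2 the shift was 3 bins.

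**Figure D4:**
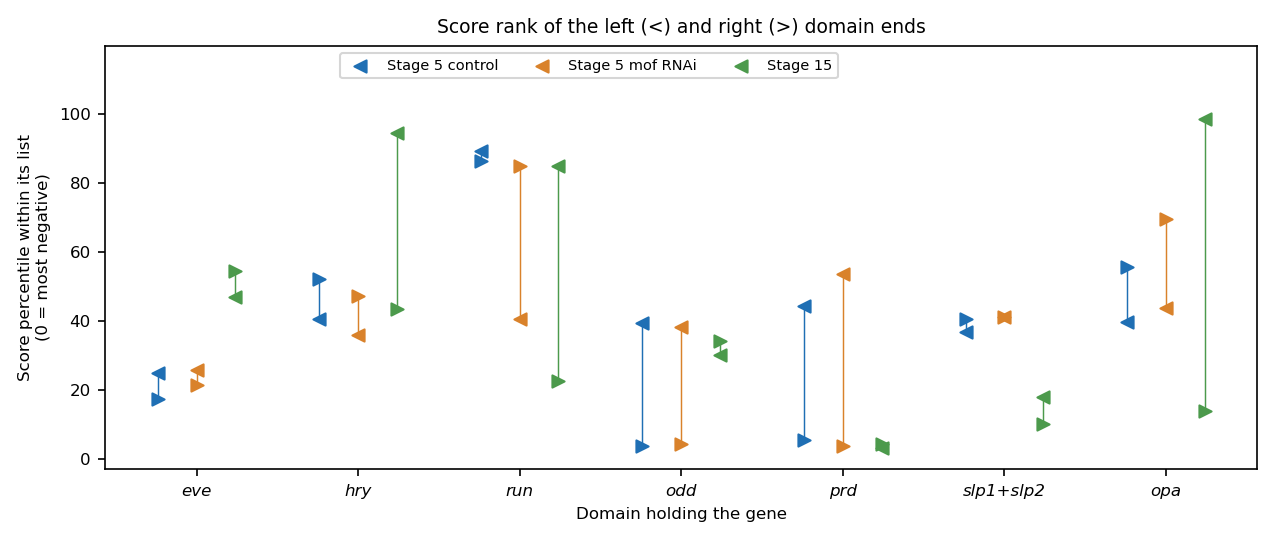
Percentile of the score of the left (triangles pointing left) and right (pointing right) domain ends within their own list, where 0 is the most negative score. In control both ends at run lie above percentile 86, the right ends at odd and prd below 6, and the ends at eve at 24.9 and 17.2.

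Within stage 5 control the end boundaries of the members ran from percentile 3.84 of scores (the right end at odd) to 89.4 (the left end at run), with a median of 40.1. Negative scores were carried by 12 of the 14 ends, beside 77.0% of all control boundaries. After mof RNAi it was 13 of 14 beside 76.6%, and at stage 15 12 of 14 beside 87.0%, the 2 positive ones being the left ends at hry and opa. An end of a protein-coding gene lay within 2.5 kb of 12, 13 and 12 of the 14 ends, beside 76.1%, 73.7% and 76.4% of all boundaries of the 3 lists. These shares, too, are near the background.

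The domains of the 8 genes shared a feature that their choice had not used: protein-coding genes covered less of their length than in the median domain. This measure was added after the data were examined. Protein-coding genes covered a median of 19.5% of the length of the 7 domains in stage 5 control, where the median of all 2586 domains was 87.3% and the lower quartile 59.2%. The range ran from 6.6% at hry and 9.42% at slp1 and slp2 to 47.0% at prd. All 7 domains lay under the lower quartile of the control list, and all 7 under that of the mof RNAi list (57.7%), where their median was 21.1%. At stage 15, 6 of the 7 lay under the lower quartile of 59.7%, the exception being prd at 65.8%. Counting genes of every biotype, the median was 33.5% in control, 36.7% after mof RNAi and 39.0% at stage 15, beside 88.9%, 88.9% and 89.5% over all domains. All 8 members were held by domains under the lower quartile of coverage at stage 5 and 7 of 8 at stage 15. Of all protein-coding genes 21.0% were in control, 20.2% after mof RNAi and 21.8% at stage 15.

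**Figure D5:**
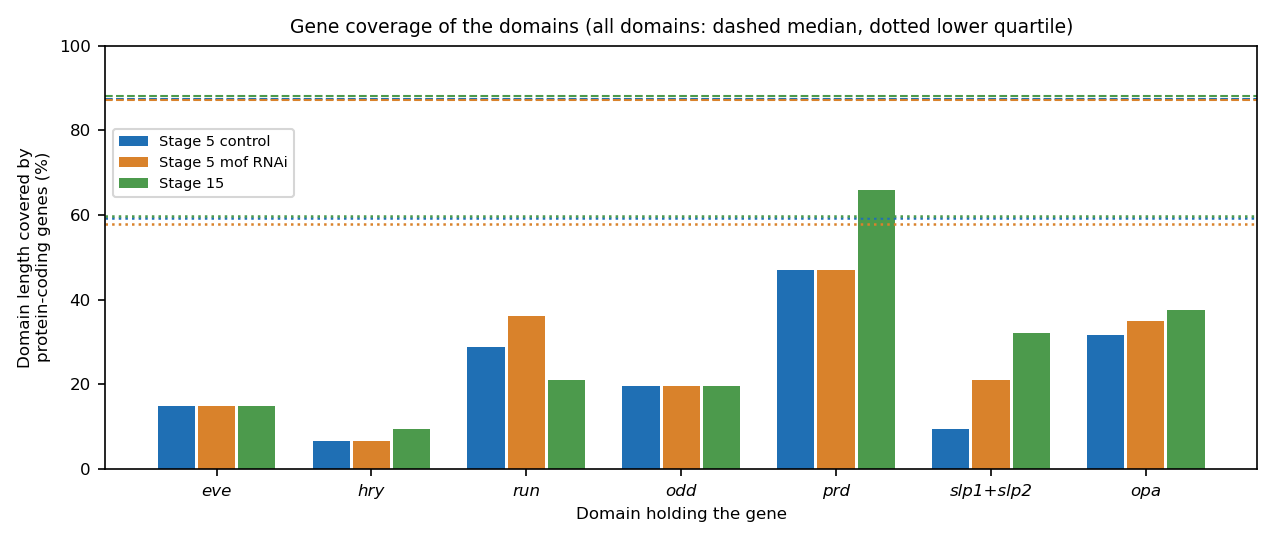
Share of each domain's length that protein-coding genes cover, in percent, in the 3 lists (bars), with the median (dashed) and the lower quartile (dotted) of all domains of each list. All 7 domains lie under the dotted lines except that of prd at stage 15, at 65.8%.

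The gaps between genes were read from the same gene table as the coverage, without any Hi-C value, so they are not separate support. The noncoding stretches on both sides of a gene up to the next protein-coding gene summed to 64.4 kb at hry, where Pex7 and SrpRbeta are the neighbours, 50.7 kb at run and 35.8 kb at odd. At slp2 they summed to 33.2 kb, at opa to 27.5 kb, at slp1 to 22.0 kb, at eve to 14.9 kb and at prd to 11.2 kb. The median over the 8 was 30.4 kb, and over the 8088 protein-coding genes that no other protein-coding gene overlaps it was 1.49 kb. prd, the lowest of the members, stood at percentile 81.4 of these 8088, and hry, the highest, at 97.9. The members' domains held 0.571 protein-coding genes per 10 kb at the median in each list, beside 1.03 in control, 1.02 after mof RNAi and 1.07 at stage 15 over all domains. The prd domain was the exception above the background, with 1.75 at stage 5 and 2.86 at stage 15. Members with the longest gaps, hry and run, had a boundary inside the gene at stage 5, as did opa with 27.5 kb. odd and slp2, whose gaps were longer than those of opa, had none.

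A list of 28 other genes was read in the same way. It held maternal, gap and segment polarity genes, ftz and its cofactor ftz-f1. The odd paralogs drm, sob and bowl, and gro, zld and Trl, were also in it. Because drm and sob share the odd domain, that domain counts both among the 28 and among the pair-rule genes. Of these 28, 15 had an end at a boundary in stage 5 control, 17 after mof RNAi and 10 at stage 15. Of the 8 pair-rule genes it was 2, 3 and 1, and of all protein-coding genes 31.6%, 29.5% and 34.5%. Among the 9 maternal and gap genes 6 were at a boundary in both stage 5 lists and 2 (bcd and nanos) at stage 15. Among the 11 segment polarity genes it was 7, 8 and 5. The pair-rule gene ftz, which lies between Hox genes, was 16.8 kb from its nearest boundary in each list. Domains with the same ends in stage 5 control and mof RNAi held 20 of the 28 and 5 of the 8 pair-rule genes. In stage 5 control and stage 15 they held 12 of the 28 and 2 of 8. The shares over all protein-coding genes were 59.0% and 31.5%. Domains in the lowest quartile of gene coverage held 9, 10 and 10 of the 28, beside 21.0%, 20.2% and 21.8% of all protein-coding genes. No test of a difference between the lists of genes was made. The 28 genes were chosen with earlier results of these data known, so their counts are descriptions and no independent sign of a place at boundaries.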

How the data were processed

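The members and gene lists were chosen with earlier results of these data known. Of the 70 samples of the series, the 13 Hi-C libraries were used, through 3 deposited boundary lists, and the other 57 samples were not analysed here. Sequencing was paired-end with 75 bp reads, per the labels' protocols. The score of each boundary is the authors' deposited value. Boundaries were called on dm6, per the submitters' processing notes, in bins of 2.5 kb, per the deposited intervals. No aligner, boundary caller or threshold is named by the sources used here. A second stage 5 list was identical to the control list and was not used.

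A boundary was placed at its interval's midpoint, a domain runs between neighbouring midpoints on an arm, and a gene belongs to the domain holding its larger part. Ends matched within 2.5 kb. Coordinates are 1-based. Left-out bins are those missing from the numbers in boundary names. Percentiles are ranks within 1 list or over the genes named. Genes came from RefSeq's release 6 table, which matches dm6 and holds no strand or exons, so gene ends are left and right. The planned motif and protein comparison and the transcription start alternatives were not run. Named are the 8 members whatever their values, genes in or at the ends of their domains, and the list of 28. Gene coverage was added after the data were examined. Functions were tested on simulated lists. Python 3.11.15, pandas 2.3.3 and numpy 2.4.6 were used.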

Additional observations from a re-analysis of the deposited data

How the results depend on the processing

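Each list is taken to pool its libraries, so leaving out a library was not possible. No paired analysis was possible because the lists carry no replicate numbers. With a window of 1 kb around gene ends, 0 members were at a boundary in stage 5 control (18.5% of all protein-coding genes) and 0 after mof RNAi (17.2%). At stage 15, 2 were with a window of 5 kb (48.4%) and 2 by the nearest edge of the boundary (41.9%), where hry joined opa. With the 50% of boundaries that have the most negative scores, 1 was at a boundary in control (20.6%) and 0 at stage 15 (21.3%). Domains with the same ends then held 3 members between the stage 5 lists (59.1%) and 1 between control and stage 15 (22.9%), and 4 of 24 distances moved by more than 1 bin (run at stage 5, hry and opa at stage 15). Left-out bins aside, 3 of 6 members had the same ends after mof RNAi (66.2%). With ends matched within 5 or 10 kb, 4 members had the same ends in control and stage 15 (36.5% and 41.3%). With negative scores only, the median domain was 49.7 kb in control and 82.5 kb at stage 15. With genes of every biotype, median coverage was 36.7% after mof RNAi, and the median over all domains 88.9%.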

Other observations

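zld, the X-linked gene of the early activator Zelda, also lay in a shorter domain in stage 5 control than in the other lists. Its nearest boundary was 6.45 kb away in stage 5 control and 16.5 kb both after mof RNAi and at stage 15. The domain that held zld measured 40 kb in control and 102.5 kb in both other lists. Trl, which encodes the GAGA factor, had its nearest boundary 3.55 kb away in control and 1.05 kb in both other lists, and its domain measured 85, 45 and 52.5 kb. Other genes of the list of 28 had equal values in control and at stage 15 instead. The nearest boundary of cad was 4.365 kb away in control and at stage 15 and 13.2 kb after mof RNAi, and that of wg 27.2 kb in control and at stage 15 and 22.2 kb after mof RNAi. These genes were chosen after their values were seen. The co-repressor gene gro lay 0.764 kb from a boundary in each list.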
